A study of Homo sapiens with 5 samples.

Results

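The replication-dependent histone genes scored here are 68 protein-coding genes that make the core histones H2A, H2B, H3 and H4 and the linker histone H1. They were taken from RefSeq (GRCh38.p14) as the genes of chromosomes 1 and 6 whose symbols begin with H2AC, H2BC, H3C or H4C and a number, or are H1-1 to H1-6, out of 19974 protein-coding genes in all. The set holds 17 H2A, 18 H2B, 13 H3, 14 H4 and 6 H1 genes, and their gene records are short, with a median of 494.5 bp and 8 records longer than 2 kb. Each gene was scored in a window of 2 kb either side of both ends of its record, and a window was called marked where at least 1 bp of a deposited interval fell in it. The genes were chosen by symbol and chromosome, but the family itself was selected on its EZH2 and H3K27me3 calls in these same lists, so its counts are a description and carry no test.

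HT1376 is an established human bladder carcinoma line. For 8 days the cells received either DMSO, as vehicle, or the EZH2 inhibitor CPI-0209 at 250 nM. They were then fixed with formaldehyde for chromatin immunoprecipitation and sequencing (ChIP-seq). Intervals were deposited for EZH2 with DMSO, EZH2 with CPI-0209, H3K27me3 with DMSO and H3K27me3 with CPI-0209, with 1 library in each group. There was therefore no replicate check, no p-value can be given, and the spread between cultures is unknown. The lists hold 24311, 43522, 41342 and 18865 intervals in that order, without scores or counts, so depth is unknown and the absence of an interval does not show that the protein or mark was absent.

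EZH2 carries the methyltransferase activity of Polycomb repressive complex 2, which trimethylates lysine 27 of histone H3, and the histone H3 made from the H3C genes is the substrate of that reaction. Replication-dependent histone genes are transcribed mainly in S phase, when new chromatin must be packaged, and their mRNAs end in a stem-loop instead of a poly(A) tail. Their clusters gather in nuclear histone locus bodies, where the coactivator NPAT drives transcription. H2AC1 and H2BC1 are known as testis histone genes and H1-6 as the testis linker histone.

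Many H2A and H2B genes sit head to head and share 1 short stretch of promoter. Among the genes with a known strand there were 12 head-to-head pairs. In 11 of them an H2A gene faced an H2B gene, with 193 to 247 bp between the starts, and in the other H3C7 faced H2BC9 across 978 bp. The stretches between the starts of 3 pairs are shown because the pairs had 3 different patterns in the lists: H2AC1/H2BC1 lay under both EZH2 and H3K27me3, H2AC17/H2BC17 lay under EZH2 in both conditions without H3K27me3, and H2AC14/H2BC14 lay under EZH2 in DMSO only. The bases before the starts of H4C11 and H4C12 are shown because these near-identical copies differed in their calls. All are RefSeq sequences of GRCh38.p14, read toward the start of the named gene. Capitals mark the octamer ATTTGCAT, CCAAT and TATAAA on either strand.
H2BC1 (from H2AC1, chr6:25726563-25726776, plus strand): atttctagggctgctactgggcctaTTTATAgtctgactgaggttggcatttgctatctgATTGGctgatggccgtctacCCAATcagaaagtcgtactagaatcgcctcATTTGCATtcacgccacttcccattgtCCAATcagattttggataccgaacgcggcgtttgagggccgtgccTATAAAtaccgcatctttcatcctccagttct
H2BC14 (from H2AC14, chr6:27814778-27815021, plus strand): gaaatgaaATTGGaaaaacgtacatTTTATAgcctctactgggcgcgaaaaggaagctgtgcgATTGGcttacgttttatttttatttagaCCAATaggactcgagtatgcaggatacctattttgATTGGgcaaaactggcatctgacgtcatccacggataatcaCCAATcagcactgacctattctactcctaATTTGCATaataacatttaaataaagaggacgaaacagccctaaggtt
H2BC17 (from H2AC17, chr6:27893186-27893424, plus strand): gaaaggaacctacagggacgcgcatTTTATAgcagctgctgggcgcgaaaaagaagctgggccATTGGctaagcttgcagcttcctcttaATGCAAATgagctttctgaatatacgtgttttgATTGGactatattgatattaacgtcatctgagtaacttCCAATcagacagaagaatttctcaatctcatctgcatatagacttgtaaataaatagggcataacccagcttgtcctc
H4C11 (chr6:27823942-27824091, plus strand): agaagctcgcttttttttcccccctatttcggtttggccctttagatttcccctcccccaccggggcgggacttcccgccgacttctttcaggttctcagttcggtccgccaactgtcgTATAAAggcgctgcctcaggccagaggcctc
H4C12 (chr6:27831561-27831710, minus strand): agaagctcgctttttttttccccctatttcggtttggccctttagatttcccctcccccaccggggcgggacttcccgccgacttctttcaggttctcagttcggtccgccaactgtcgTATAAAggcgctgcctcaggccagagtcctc

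Each of the 3 pair promoters held 1 octamer, and they held 3, 5 and 3 CCAAT boxes in the order printed. The pairs were chosen because their calls differed, and a link between these elements and the calls was not tested. Over the 63 histone genes with an entry in the promoter table, the octamer, which is bound by POU2F1, was found in the 250 bases before the start of 26 (41.3%), against 2.03% of 27195 genes. It was present at 14 of 18 H2B and 11 of 16 H2A promoters, at 1 of 11 H3 promoters and at no H4 or H1 promoter. CCAAT was present at 54 of 63 (85.7%, against 37.0% of all) and TATAAA at 42 (66.7%, against 13.1%). GGTCC, the core of an element known from H4 promoters, was present at 11 of 12 H4 genes and at 20 of 63 members (31.7%, against 45.1% of all). AAACACA, the H1 box, was present at all 6 H1 genes and at none of the other 57 members (9.52% in all, against 5.96%). Both strands were searched, no motif contains the letters of another, and a pair's shared bases were counted for each of its genes. The octamer was found at 19 of 40 promoters whose gene had EZH2 intervals at both ends in both conditions, at 2 of 6 whose gene had them in DMSO only, and at 3 of 11 whose gene had none in either. A match is a string of letters and does not show that a factor was bound.

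EZH2 intervals lay at most of these genes in both conditions, and H3K27me3 intervals at almost none. In DMSO, 51 of 68 histone genes (75.0%, exact 95% interval 63.0% to 84.7%) had EZH2 intervals at both record ends, against 17.5% of all protein-coding genes. With CPI-0209 the number was 47 (69.1%, 56.7% to 79.8%), against 25.9% of all. H3K27me3 intervals were called at both ends of 2 genes in DMSO and 2 with CPI-0209 (2.94%, 0.358% to 10.2%), against 15.2% and 8.68% of all protein-coding genes. The intervals (Clopper-Pearson) cover counting error over genes only, and neighbouring genes that share 1 called interval are not independent.

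Short genes have both ends under 1 interval more easily, so the records of at most 2 kb outside the family are the background closer in length. They were matched to the histone genes in no other way, and the part of other differences between the sets was not tested. Of these 1189 genes, 29.9% had EZH2 at both ends in DMSO and 38.2% with CPI-0209, and 24.1% and 15.2% had H3K27me3. H3K27me3 was kept at 2 histone genes (8.53% of all protein-coding genes and 14.8% of the short ones), called in DMSO only at 0 (2.51% and 8.66%), called with CPI-0209 only at 0 (0.0451% and 0.252%), and called at neither end in both lists at 66 (68.2% and 73.3%). The histone genes thus stood above that background for EZH2 and below it for H3K27me3 in both conditions. Counting genes with at least 1 end marked gave 82.4% of members for EZH2 in DMSO and 72.1% with CPI-0209, against 54.6% and 71.5% of all protein-coding genes. By that looser count the members' share with CPI-0209 was near the background of all genes, and above that of the short ones, of which 31.1% and 39.8% had at least 1 end under EZH2. For H3K27me3 the looser count again gave 2 members in each condition, against 31.3% and 21.7% of all and 26.3% and 16% of the short ones.

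**Figure D1:**
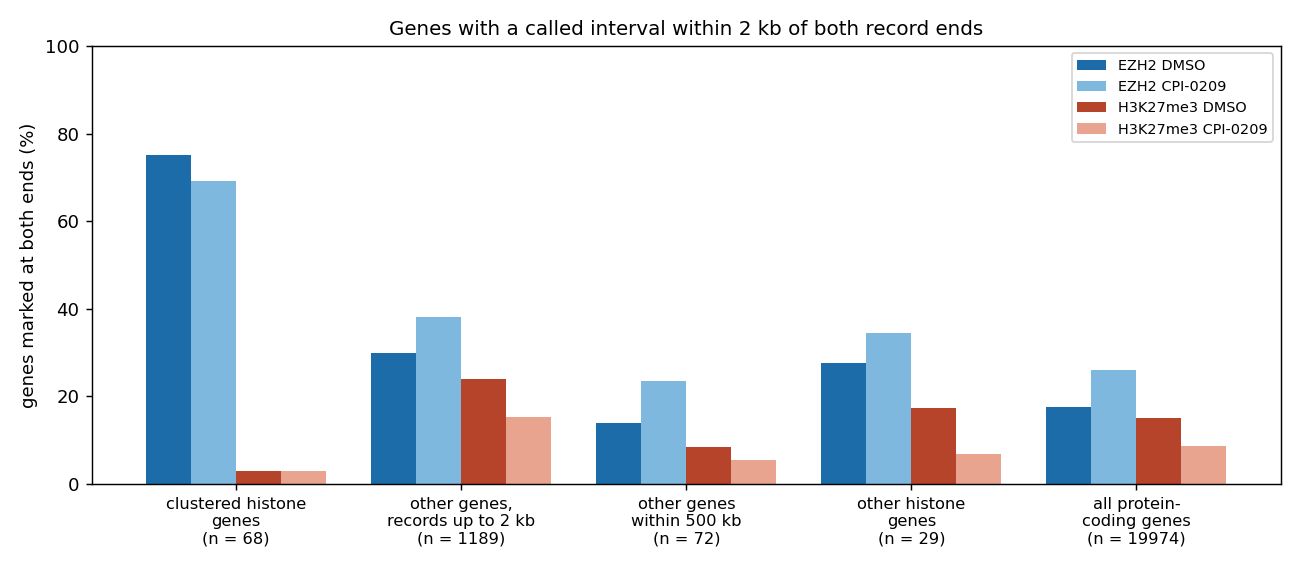
Percent of genes (vertical axis) with a called interval within 2 kb of both record ends, for the histone genes, other short genes, other genes within 500 kb of a cluster, other histone genes and all protein-coding genes; each bar is 1 list from 1 library, so there are no error bars. The histone genes reach 75.0% and 69.1% for EZH2 and 2.94% for H3K27me3 in both conditions, and the other short genes 29.9%, 38.2%, 24.1% and 15.2%.

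The same comparison at gene starts alone moved the EZH2 result. The strand, and so the start, was known for 63 histone genes and for 15812 protein-coding genes. In DMSO, EZH2 lay within 2 kb of the start of 50 of the 63 (79.4%), against 52.2% of all. With CPI-0209 it lay at 44 (69.8%), against 71% of all, which is no higher than the background. H3K27me3 lay at 2 of 63 starts in both conditions (3.17%), against 25.4% and 18.1%. EZH2 lay at fewer histone starts with CPI-0209 than in DMSO, and at more starts over all genes. Of starts marked by EZH2 in DMSO, 7 of 50 histone starts (14%) and 4.82% of all starts had no EZH2 with CPI-0209, while of unmarked starts 1 of 13 histone starts (7.69%) and 44.6% of all starts had EZH2 with CPI-0209.

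EZH2 calls lay over the histone starts and the bases just after them, and were wider around the starts in DMSO. The DMSO share was highest at 0.6 and 0.8 kb after the start, at 73.0%. The CPI-0209 share was level at 69.8% from 0.2 kb before the start to 0.6 kb after it. At the start itself 71.4% of the 63 genes lay under an EZH2 interval in DMSO and 69.8% with CPI-0209, against 48.2% and 66.7% of 15749 other genes. At 2 kb before the start the shares were 55.6% and 42.9%, against 29.4% and 30.5%. At 10 kb before the start they were 25.4% and 15.9%, against 12.5% and 15.3%. At the start H3K27me3 covered 3.17% of the histone genes in each condition, against 20.8% of other genes in DMSO and 15.1% with CPI-0209.

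**Figure D2:**
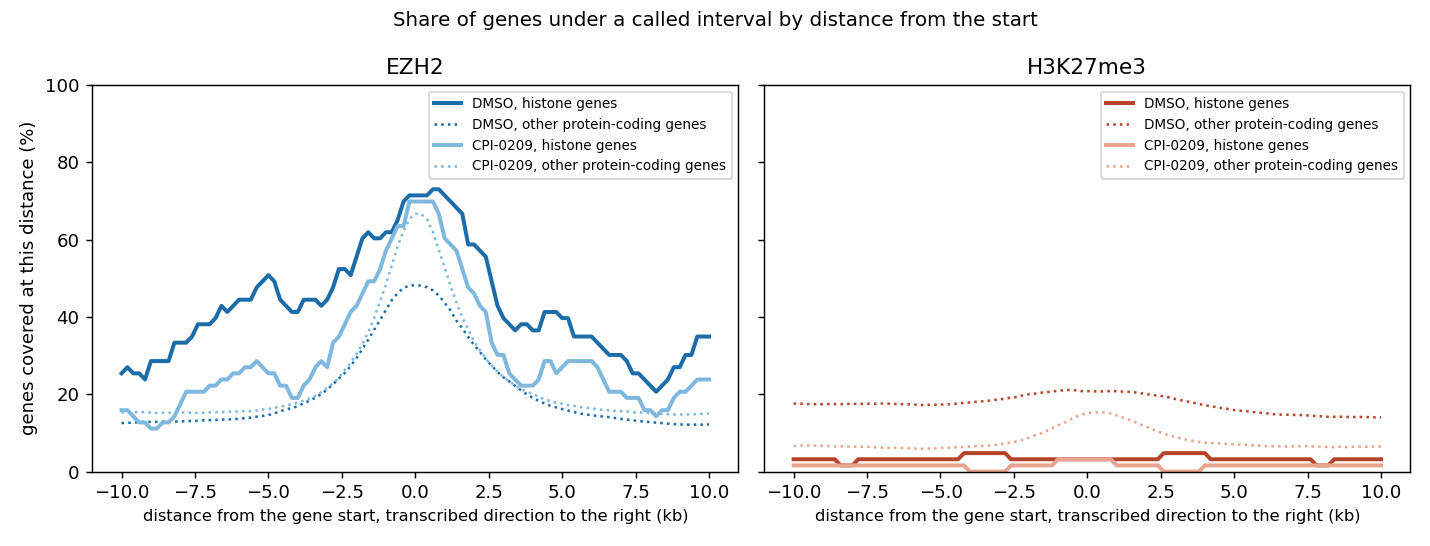
Percent of genes under a called interval (vertical axis) at each distance from the start (horizontal axis, kb, transcribed direction to the right), for EZH2 (left panel) and H3K27me3 (right panel); solid lines are the 63 histone genes and dotted lines 15749 other protein-coding genes. At the start the EZH2 lines of the histone genes reach 71.4% in DMSO and 69.8% with CPI-0209, and their H3K27me3 lines 3.17%.

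The pair H2AC1 and H2BC1 held the only H3K27me3 calls at a histone gene. In DMSO both genes lay wholly under 1 H3K27me3 interval of 12 kb (chr6:25722401-25734400). With CPI-0209 the interval was 3.6 kb wide (chr6:25725601-25729200) and covered 65.8% of the windows of H2AC1 and 78.8% of those of H2BC1. H3K27me3 was thus still called at the pair, over a narrower stretch, as it was at 97.5% of the 1704 protein-coding genes that kept H3K27me3 at both ends, where the median width was 39.4 kb in DMSO and 12.1 kb with CPI-0209. EZH2 went the other way at the pair: its interval was 4.0 kb wide in DMSO (chr6:25725601-25729600) and 6.4 kb with CPI-0209 (chr6:25723001-25729400). The EZH2 interval covered 65.8% of the windows of H2AC1 in DMSO and 100% with CPI-0209. Each file runs through the chromosomes 2 times, and the sources used here do not say what the 2 runs are. The DMSO EZH2 call at the pair was found in the second run only, and the CPI-0209 call in both, so with the first run alone EZH2 was called at neither gene in DMSO.

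At the other 66 histone genes EZH2 was called without H3K27me3, or neither was called. Of the 51 genes with EZH2 at both ends in DMSO, 49 (96.1%) had H3K27me3 at neither end, against 36.3% of all protein-coding genes with EZH2 at both ends and 44.5% of the short ones. With CPI-0209 it was 45 of 47 (95.7%), against 49.3% and 59.5%. Counted by interval, 25 merged EZH2 intervals in DMSO and 26 with CPI-0209 touched a histone gene window, and 1 in each list, the one at H2AC1 and H2BC1, also touched an H3K27me3 interval. Genome-wide 41.8% of merged EZH2 intervals in DMSO and 59.0% with CPI-0209 touched none. Just outside the windows lay the pair H2AC25 and H2BC26 on chromosome 1, 2.728 kb and 2.043 kb from an H3K27me3 interval of 26 kb in DMSO (chr1:228460601-228486600). With CPI-0209 the nearest H3K27me3 interval was 4.128 kb from H2AC25 and 3.443 kb from H2BC26.

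By role, the share of genes called ranged from all of the H2A genes to 8 of 13 H3 genes in DMSO. EZH2 lay at both ends of all 17 H2A genes in DMSO and of 14 with CPI-0209. For H2B, the partner of H2A in the nucleosome, it was 12 of 18 in both conditions. For H3, which carries the lysine that EZH2 methylates, it was 8 of 13 in both conditions, and the same 8 genes (H3C1, H3C2, H3C4, H3C7, H3C8, H3C10, H3C11 and H3C12) were called in each. That holds only with the runs of each file merged. The CPI-0209 call at H3C1 was found in the second run only, and the DMSO call at H3C7 in the first run only. The H4 genes gave 9 of 14 in both conditions, but H4C7 was called only in DMSO and H4C11 only with CPI-0209. Of the linker genes, 5 of 6 were called in DMSO and 4 with CPI-0209. The median share of the windows under EZH2 in DMSO and with CPI-0209 was 100% and 80.2% for H2A, 82.7% and 63.5% for H2B, 74.5% and 64.5% for H3, 54.7% and 43.2% for H4, and 61.0% and 63.1% for H1.

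Over all 68 genes the median share of the windows covered by EZH2 was 76.7% in DMSO and 65.4% with CPI-0209. It was lower with CPI-0209 at 31 genes, higher at 9 and equal at 28, of which 11 had no coverage and 14 full coverage in both. Where a gene kept EZH2 at both ends, the widest interval at it was narrower with CPI-0209 at 36 of 45 genes, wider at 7 and equal at 2. Its median width was 5.4 kb in DMSO and 5.2 kb with CPI-0209. Genes that share 1 interval were each counted here, so these counts are not independent. All histone gene windows together touched 25 merged EZH2 intervals in DMSO and 26 with CPI-0209. Over all 3067 protein-coding genes that kept EZH2, 48.3% had a narrower interval with CPI-0209 and the medians were 17.2 kb and 17.6 kb. The EZH2 intervals at kept histone genes were thus short beside those of kept genes in general, but record length was not matched here. Most were narrower with CPI-0209. Counted by merged interval, the gap was smaller. For DMSO, intervals touching histone gene windows had median width 4.8 kb, against 6.6 kb for all merged EZH2 intervals genome-wide. For CPI-0209 these medians were 3.8 kb and 4.6 kb, so the genome-wide median was also lower with CPI-0209.

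**Figure D3:**
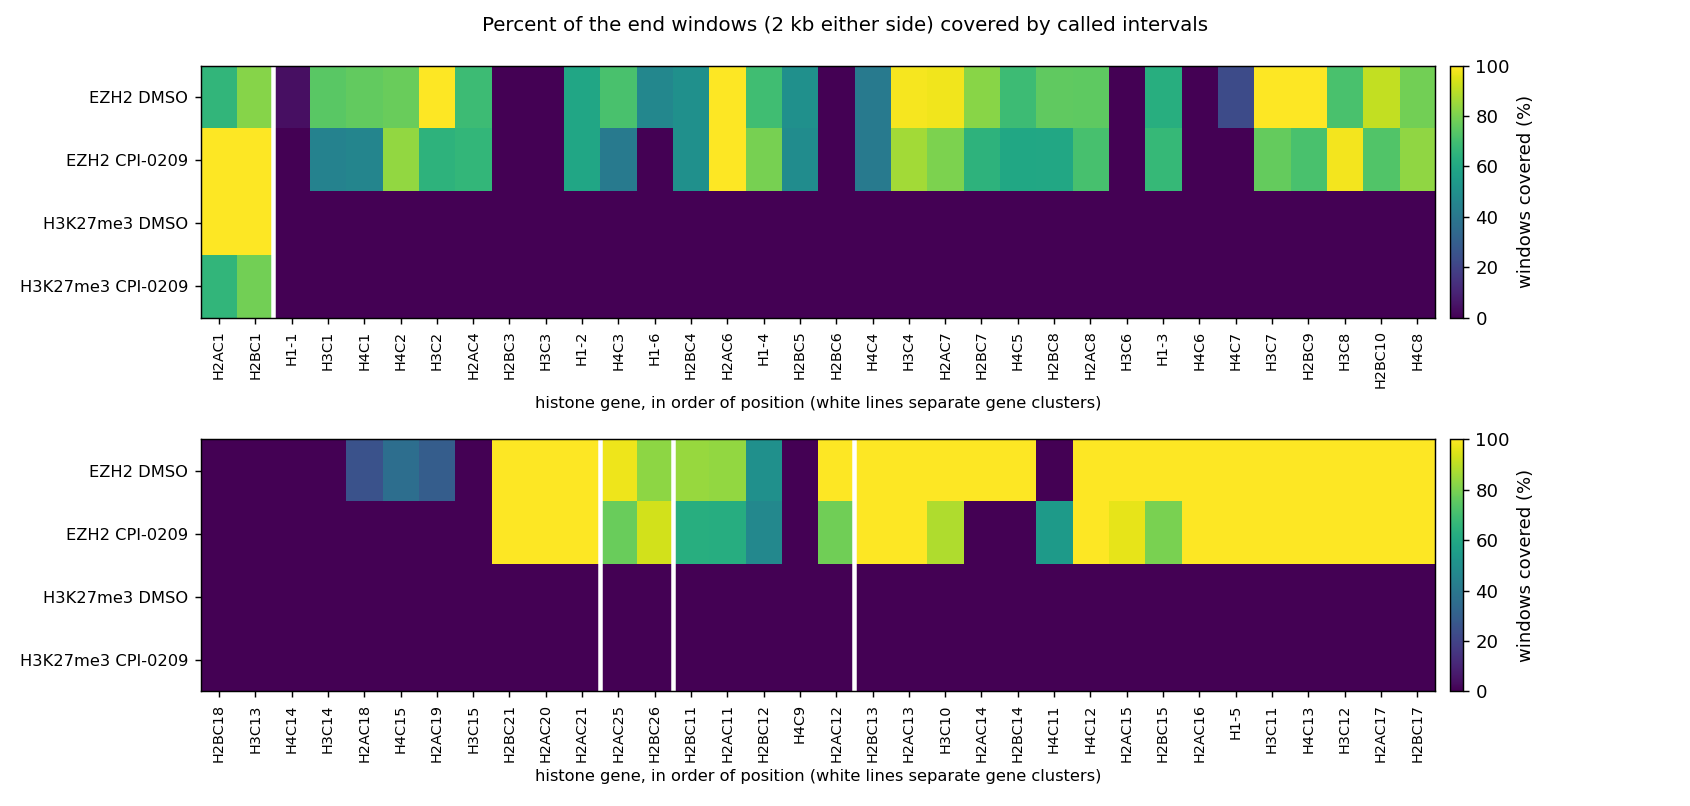
Each column is 1 of the 68 histone genes in order of position, each row 1 list from 1 library, and the colour gives the percent of the gene's end windows under called intervals. H2AC1 and H2BC1 are the only columns with H3K27me3, and the cluster from H2BC13 to H2BC17 (right end of the lower panel) is at 100% for EZH2 in DMSO except at H4C11, with H2AC14 and H2BC14 at 0 with CPI-0209.

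EZH2 was kept at both ends of 45 of the 68 genes (15.4% of all protein-coding genes and 28.3% of the short ones), was called in DMSO only at 6 (0.26% of all and 1.01% of the short ones), and with CPI-0209 only at 1 (4.13% and 9.34%). Another 3 genes changed in the number of marked ends, 2 had 1 end marked in both, and 11 had none (25.9% of all and 59% of the short ones). Of the 51 genes called in DMSO, the 45 kept were 88.2%, near the 87.9% of all such genes and below the 94.9% of the short ones. The 6 called in DMSO only were 11.8%, against 1.49% of all and 3.38% of the short ones. Over all genes another 370 of 3489 kept 1 end, a state that none of the 51 histone genes had. These 6 were H2AC18, H2AC19, H2AC14, H2BC14, H1-6 and H4C7.

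Several of these differences rested on short distances or on 1 interval. H2AC18 and H2AC19 both touched 1 DMSO interval of 6.8 kb (chr1:149843601-149850400), present in the first run only, which covered 25.4% and 29.6% of their windows. No CPI-0209 interval lay within 29.807 kb of H2AC19 or 38.651 kb of H2AC18. H1-6 touched the DMSO interval chr6:26103201-26107600, which covered 46.3% of its windows, and the nearest CPI-0209 interval ended 12 bp beyond the window. H4C7 had 22.7% of its windows covered in DMSO, and the nearest CPI-0209 interval began 205 bp beyond the window. The DMSO calls at H1-6 and H4C7 were also found in the first run only.

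The pair H2AC14 and H2BC14 was called in both runs in DMSO. There it lay wholly under an EZH2 interval of 33.4 kb (chr6:27787001-27820400), the widest EZH2 interval at any histone gene. With CPI-0209 the EZH2 interval on that side was 7.4 kb wide (chr6:27804601-27812000) and ended 2.302 kb before H2AC14, which is 302 bp beyond its window, and 3.022 kb before H2BC14. A window of 5 kb reaches that interval from both genes, so the difference in call at this pair ends with that window. The pair had no EZH2 call in its windows of 2 kb with CPI-0209, while its neighbours H2BC13, H2AC13 and H3C10, under the same DMSO interval, were covered at 100%, 100% and 88.1% with CPI-0209.

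H4C11 was the 1 gene called with CPI-0209 only. It lay between 2 DMSO intervals, the nearer of which began 3.121 kb away, and with CPI-0209 it had an interval of 2.4 kb (chr6:27823801-27826200) that was found in the second run only and covered 54.7% of its windows. Its copy H4C12, whose promoter window was 98.3% identical (295 of 300 bases), was covered at 100% in both conditions. The genes that changed in 1 end were H1-1, with 3.93% of its windows covered in DMSO and none with CPI-0209, H4C15, with 36.1% and none, and H2BC5, which had an added CPI-0209 interval of 1 kb near its far end (chr6:26171801-26172800).

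Copies so alike that reads may not be placed uniquely made up 8 members. The promoter windows of H4C14 and H4C15 (300 bases), H3C14 and H3C15 (296 bases) and H2AC18 and H2AC19 (299 bases) were identical over the bases compared. The 100 bases before the starts of the H3C14 and H3C15 copies, offset by 4 bases in the table, are shown because neither gene had an EZH2 call in either list. The treatment of reads with more than 1 match is unknown, and its part in these calls was not tested.
H3C14 (chr1:149841209-149841308, minus strand): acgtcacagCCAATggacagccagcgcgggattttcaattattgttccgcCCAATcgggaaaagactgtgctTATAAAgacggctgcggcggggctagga
H3C15 (chr1:149852508-149852607, plus strand): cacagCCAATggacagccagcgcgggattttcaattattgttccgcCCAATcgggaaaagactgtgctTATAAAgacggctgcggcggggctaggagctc

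With neighbours at most 200 kb apart, the genes fell into 6 clusters, and EZH2 was unevenly spread over them. The largest, H1-1 to H4C8 on chromosome 6 (chr6:26017032-26285534), holds 32 genes. EZH2 lay at both ends of 24 of them in DMSO and 23 with CPI-0209. It formed separate small intervals, 15 in DMSO and 16 with CPI-0209, with a median width of 4.2 kb in DMSO and 3.2 kb with CPI-0209. Within the gene windows they covered 50.5% and 43.7% of the bases, and between the windows 4.02% and 0.674%. The EZH2 intervals thus followed the genes, and the gaps between genes were almost free of them. No H3K27me3 interval lay in the span, and the nearest was 89.832 kb from H1-1 in DMSO and 215.267 kb from H4C8, at the other end, with CPI-0209. At the end of the span H4C8, with an interval of 4.2 kb in DMSO and 3.8 kb with CPI-0209, was covered at 78.8% and 83.4%. The genes H2BC3, H3C3, H2BC6, H3C6 and H4C6 within this cluster had no EZH2 call in either list.

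**Figure D4:**
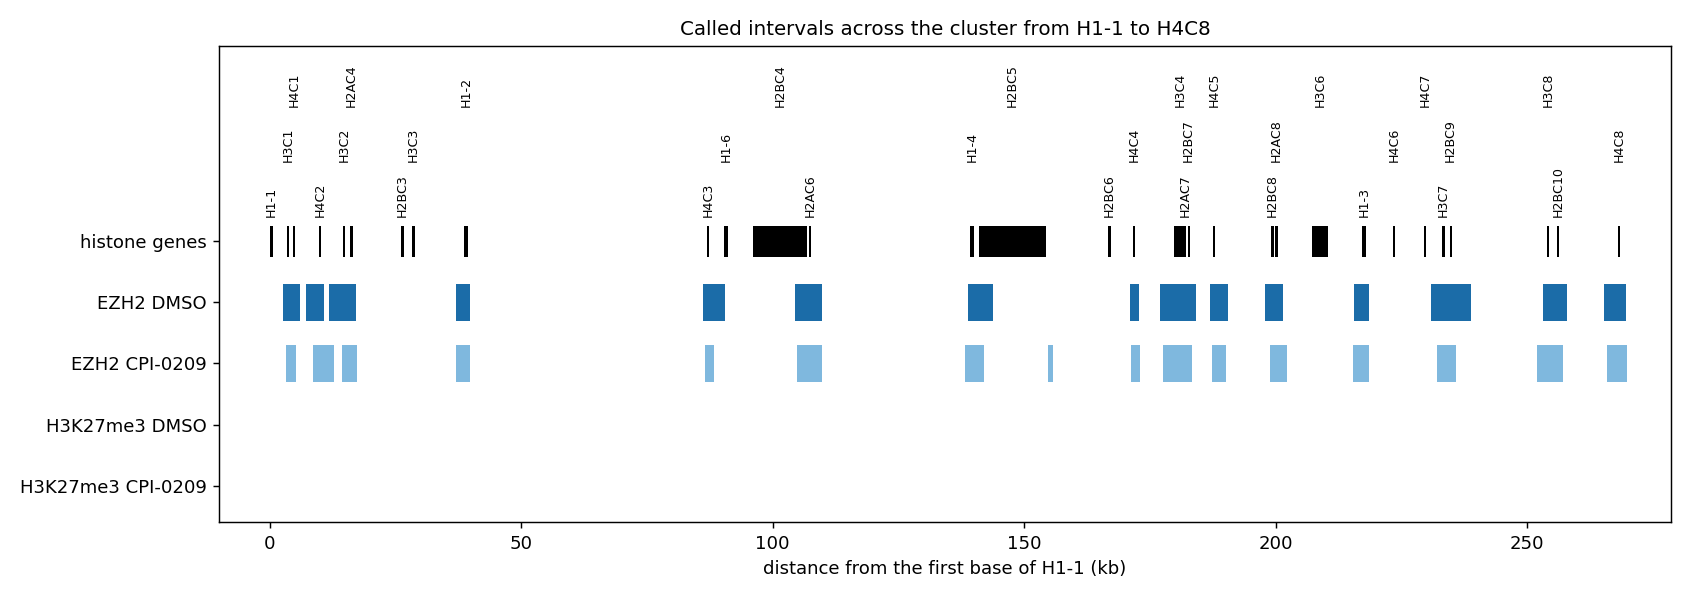
Map of the cluster from H1-1 to H4C8, with distance from the first base of H1-1 in kb on the horizontal axis, gene records in black (drawn at least 0.3 kb wide) and the merged called intervals of each list below. The EZH2 intervals, 15 in DMSO and 16 with CPI-0209, lie at the genes, and the H3K27me3 rows are empty.

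The cluster from H2BC13 to H2BC17 (chr6:27807479-27893891) was the most covered of those with more than 2 genes. Of its 16 genes, 15 had EZH2 at both ends in DMSO and 14 with CPI-0209. EZH2 intervals covered 60.4% of the span in DMSO, as 4 intervals with a median of 24.5 kb, and 45.4% with CPI-0209, as 5 intervals with a median of 9.8 kb. Between the gene windows the coverage was 33.5% and 13.5%, so the difference between conditions was larger there than in the windows, where it was 89.4% and 79.8%. H2BC13, the first gene, lay under the 33.4 kb DMSO interval and a 7.4 kb CPI-0209 interval. H2BC17, the last, lay under 31.4 kb in DMSO and 9.8 kb with CPI-0209, and was covered at 100% in both.

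An H3K27me3 domain ended short of this cluster. In DMSO, H3K27me3 intervals of 203 kb (chr6:27550801-27753800) and 20.4 kb (chr6:27754001-27774400) lay before the cluster, the second ending 33.079 kb from H2BC13. With CPI-0209 the stretch was broken into shorter H3K27me3 intervals, the widest of them 26.8 kb, and the nearest ended 47.079 kb from H2BC13. The widest EZH2 intervals over that flank were 153.6 kb and 43.2 kb in DMSO and 154.2 kb and 59.4 kb with CPI-0209. Thus EZH2 was called on the flank and in the cluster in both conditions, and H3K27me3 on the flank only.

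**Figure D5:**
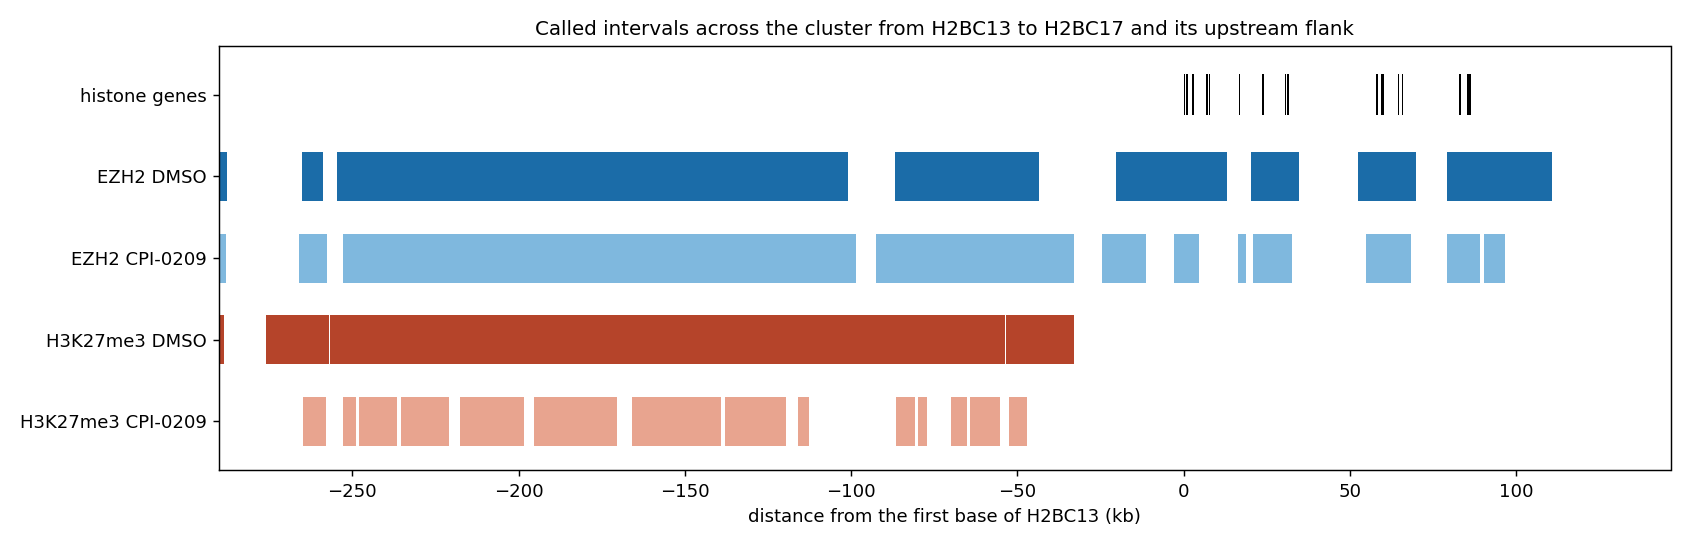
Map of the cluster from H2BC13 to H2BC17 and the flank before it, with distance from the first base of H2BC13 in kb on the horizontal axis, gene records in black (drawn at least 0.3 kb wide) and the merged called intervals of each list below. The H3K27me3 intervals end 33.079 kb before H2BC13 in DMSO and 47.079 kb before it with CPI-0209, while EZH2 intervals lie on both the flank and the genes.

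The 4 smaller clusters differed among themselves. In the cluster on chromosome 1 from H2BC18 to H2AC21 (chr1:149782689-149887965), 5 of 11 genes had EZH2 at both ends in DMSO and 3 with CPI-0209, and 13.3% and 7.19% of the span was covered. Its 3 kept genes, H2BC21, H2AC20 and H2AC21, lie side by side under 1 interval of 13.4 kb in DMSO and 10.4 kb with CPI-0209. Its first gene H2BC18, with H3C13, H4C14, H3C14 and H3C15, had no EZH2 call in either list. H2AC25 and H2BC26 were kept under an interval of 4.4 kb in DMSO and 4.8 kb with CPI-0209, with coverage of 97.6% and 77.0% at H2AC25 and 83.0% and 93.3% at H2BC26. In the cluster from H2BC11 to H2AC12, 3 of 5 genes were kept. H2BC11 was covered at 84.7% in DMSO and 62.5% with CPI-0209, and H2AC12 at 100% and 78.4%, while H4C9 had no EZH2 call.

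Genes of a head-to-head pair had the same class of EZH2 call in 11 of 12 pairs, as their windows nearly coincide. In 10 pairs both genes were kept, and H2AC14 and H2BC14 were both called in DMSO only. The exception was H2BC4 and H2AC6, where the record of H2BC4 is 10757 bp long and its far end lay outside the shared interval.

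Other histone genes, most of which make replacement and testis variants, lie outside the clusters and were scored in the same way. Their list includes H4C16 and H2BC12L, whose symbols fit the rule but which lie on chromosomes 12 and 21. H4C16 kept EZH2 at both ends without H3K27me3, and H2BC12L had no call in any list. Of 29 such genes, 8 (27.6%) had EZH2 at both ends in DMSO and 10 (34.5%) with CPI-0209, and 5 (17.2%) and 2 (6.90%) had H3K27me3. The clustered genes, at 75.0% and 69.1% for EZH2 and 2.94% for H3K27me3, lay above these shares for EZH2 and below them for H3K27me3, and the difference was not tested. EZH2 without H3K27me3 was kept at H1-10, at H2AX, the H2A variant phosphorylated at DNA breaks, and at H2AJ, among 7 kept genes. The 5 with H3K27me3 in DMSO were H1-7, H2BW1, H2BW2, H2BK1 and H3Y2. H1-7 and H2BW1 kept H3K27me3 at both ends with CPI-0209, H2BK1 at 1 end, and H2BW2 and H3Y2 at neither. EZH2 was called with CPI-0209 only at H1-7, H2BW1 and H2BW2.

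Genes whose products transcribe histone genes, process their mRNAs or carry histones to chromatin were scored too. Of 36 listed genes, most with long records, 2 (5.56%, against 17.5% of all) had EZH2 at both ends in DMSO. They were CPSF3, an endonuclease of 3′ processing, and CDK2, the kinase of S-phase entry. With CPI-0209 the number was 9 (25%, against 25.9% of all), near that background. At least 1 end was marked at 22 (61.1%, against 54.6% of all) in DMSO and 29 (80.6%, against 71.5%) with CPI-0209. NPAT had no marked end in DMSO and 1 with CPI-0209, and SLBP, the stem-loop binding protein, had 1 in both. H3K27me3 lay at both ends of 0 of the 36 in either condition, against 15.2% and 8.68% of all. It lay at 1 end of 3 in DMSO and 2 with CPI-0209.

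The genes around the clusters had lower shares than all protein-coding genes in each list, but not beyond counting error over genes. Of 72 other protein-coding genes within 500 kb of a cluster, 10 (13.9%, against 17.5% of all) had EZH2 at both ends in DMSO and 17 (23.6%, against 25.9%) with CPI-0209. H3K27me3 lay at both ends of 6 (8.33%, against 15.2%) and 4 (5.56%, against 8.68%). The 4 other genes that overlap a cluster span, FCGR1A, LOC124904411, SLC17A1 and HFE, had EZH2 at both ends in neither list, although SLC17A1, whose record contains H2AC1 and H2BC1, had 1 end marked by both EZH2 and H3K27me3 in both conditions. Record length differs between these genes and the histone genes, and its part in the difference was not tested.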

How the data were processed

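ChIP-seq intervals for EZH2 and H3K27me3 from HT1376 cells given DMSO or CPI-0209 were read from 4 deposited lists, 1 library per group; the input library was not analysed here. Per the file headers, the authors deposited a chromosome, start and end for each interval and no score, count or p-value, so other units and the depth are unknown. The build hg38 and the tools BWA and SICER appear, per the submitters' processing notes, with neither version nor role, and settings, the use of the input and the 2 runs through the chromosomes in each file are not given in the sources used here. Starts were read as counting from 0 and are printed counting from 1.

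Overlapping intervals of a list were merged. Genes were taken from a RefSeq table of GRCh38.p14, which is the hg38 assembly, and starts, strands and promoter bases from a RefSeq promoter table, which held 63 of the 68 members and lacked H4C1, H4C3, H2AC12, H3C11 and H3C12. Exons and UTRs were not used here. A gene was marked with at least 1 bp of an interval in the windows of 2 kb at both record ends, kept where this held in both conditions, lost where CPI-0209 left no end marked of the 2 marked in DMSO, and gained in the opposite case. Coverage is the percent of the merged windows under intervals. Python 3.11.15, numpy 2.4.6, pandas 2.3.3 and scipy 1.17.1 were used, and the overlap code was tested on simulated data. With 1 library per group no test was run.

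The members, gene lists and alternatives were chosen with earlier results of these data known. Named genes were all members whose call changed or that had H3K27me3, the first and last gene of each cluster, members of the comparison lists with H3K27me3 at both ends and the first 4 of a class, except 1 that is not reported here; other names were added after their values were seen.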

Additional observations from a re-analysis of the deposited data

How the results depend on the processing

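More histone genes were called for EZH2 in DMSO than with CPI-0209 under 11 of 12 alternatives, as in the main setting (51 and 47). With the second run alone the count was 45 in each. Some of the 11 counted gene starts or at least 1 end in place of both ends. Keeping only intervals of at least 1 kb left 51 and 47. Shortening the longer list, described below, cut only the CPI-0209 list for EZH2, so its count could only fall. The 11 are therefore not independent checks of the direction. Of 140 recomputed values, 108 stayed near the main ones, which means within 1.5 times for counts of genes and within the exact 95% binomial interval over bins of 200 bp for shares of the spans. This tally is no measure of stability, as some values could hardly move. All 14 for intervals of at least 1 kb equalled the main ones, and genes that lost H3K27me3 numbered 0 in every setting. The setting with the longer list shortened moved 9 of 14. With a window of 1 kb the genes called by EZH2 in DMSO only numbered 3. With 5 kb, H3K27me3 lay at both ends of 4 genes in DMSO, of 4 with CPI-0209, and of 4 in both. Stretches under 2 intervals alone gave 4 genes with EZH2 called with CPI-0209 only, 1 gene with H3K27me3 with CPI-0209 and 1 in both lists, and EZH2 over 18.8% of the cluster spans in DMSO and 13.4% with CPI-0209, in place of 29.1% and 22.2%; H3K27me3 with CPI-0209 covered 0% in place of 0.268%. When the longer list of each antibody was shortened to the covered length of the other by keeping its widest intervals, EZH2 with CPI-0209 lay at 27 genes, with 27 kept, 24 lost and 0 gained, and over 13.4% of the spans. H3K27me3 in DMSO then lay at 0 genes, with 0 kept and 2 gained, and over 0% of the spans. That setting drops narrow intervals, and those at histone genes were narrow. Among the 36 genes outside the largest cluster, EZH2 lay at 27 in DMSO and 24 with CPI-0209, with 23 kept. These counts out of 36 were set beside main counts out of 68, so a lower count here is not by itself a lower share.

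The following were added after the data were seen. The first run alone gave 2 genes gained for EZH2 and covered 26.5% (DMSO) and 19.3% (CPI-0209) of the spans. The second run alone gave 3 gained for EZH2, 1 gene with H3K27me3 with CPI-0209 and 1 kept, 21.5% and 16.3% of the spans for EZH2, and 0% for H3K27me3 with CPI-0209. By run, EZH2 lay at both ends of 49 and 45 genes in DMSO (8.20% and 13.3% of all protein-coding genes). With CPI-0209 it lay at 43 and 45 (11.2% and 25.1% of all). For H3K27me3 with CPI-0209 the first run held 15850 intervals and the second 3015, which marked 8.66% and 1.42% of all genes at both ends. Without the 8 near-identical copies 0 genes were gained and 4 lost. No paired analysis was possible because each group has 1 library and no test was run. An interval list with no scores and no depth does not show whether a missing call is a missing signal, and the causes of these differences were not tested.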

Other observations

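Histone pseudogenes lie in and near the same clusters. Of 13 with records on chromosomes 1 and 6, 9 had EZH2 at both ends in DMSO and 7 with CPI-0209, and 2 and 1 had H3K27me3. Of these, 8 lay within 4 kb of a histone gene, so that their windows could share its intervals. Of the other 5, named after their values were seen, H2BC27P had both EZH2 and H3K27me3 at both ends in both conditions, and H2BC2P had EZH2 in both conditions and H3K27me3 in DMSO only. H2AC2P, H2AC3P and H3C9P did not have EZH2 at both ends in either list.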
